A study of Mus musculus with 24 samples.

Results

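Chromatin regions that differed between diabetic and control macrophages after inflammatory stimulation were picked from ATAC-seq peak lists, and their state before stimulation was then described. Merging the peaks of all 24 libraries at an overlap of 1 bp or more gave 102580 regions. A region was included where the number of stimulated diabetic libraries with a peak differed from the number of stimulated control libraries by 4 or more, of 6 in each group. There were 1524 such regions. Of these, 1447 had a peak in more diabetic libraries (1.41% of all merged regions) and 77 in more control libraries (0.0751%). The stimulated libraries chose these regions, so their values after stimulation are a description, and the 12 unstimulated libraries were not used in the choice. With every list shortened to the 41385 strongest peaks, the length of the shortest list, the same rule gave 527 and 287 regions in place of 1447 and 77.

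Bone marrow of male C57Bl/6 mice was the source of the macrophages. The 4 groups of 6 libraries were diabetic stimulated, control stimulated, diabetic unstimulated and control unstimulated. Diabetic mice had received streptozotocin (STZ), a toxin that destroys the insulin-producing beta cells of the pancreas, and control mice were untreated wild type. Stimulated cells received 100 ng/mL lipopolysaccharide (LPS) together with 10 ng/mL interferon gamma (IFNγ), and the series description states that each sample was divided between the stimulated and the unstimulated state. The cells matured in culture outside the animal, and the glucose content of the medium is not given in the sources used here. The time of stimulation is uncertain, because the protocol gives 6 h for a stimulus, IL-1β, that no other label names.

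In ATAC-seq the transposase Tn5 cuts DNA that nucleosomes leave exposed, so a peak marks an accessible promoter or enhancer. Macrophages carry a set of enhancers kept accessible by lineage factors such as PU.1 before any signal arrives. LPS acts through Toll-like receptor 4 on NF-κB and AP-1, and IFNγ acts in part through interferon regulatory factors. Together these factors open latent enhancers at inflammatory genes, while parts of the resting enhancer set lose accessibility. A region can therefore become uneven between phenotypes after stimulation in several ways. It may be gained in one phenotype, lost in the other, or be found unevenly already at rest.

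Few of the uneven regions lay at promoters. A window of 250 bases before and 50 bases after a RefSeq gene start overlapped 57 of the 1447 regions with more diabetic libraries (3.94%) and 3 of the 77 with more control libraries (3.90%), against 728 of the 15280 even regions (4.76%) and 10.7% of all merged regions. Even regions here are those found in 4 to 8 of the 12 stimulated libraries with a difference under 4. The promoters below overlapped an uneven region, and the letters shown can reach beyond that region. The 4 with more diabetic libraries were taken from 10 with the same gap of 5, by the least difference at rest and then the strongest peaks. Each of the 3 with more control libraries had a gap of 4. Each line gives the 250 bases before the start, 5′ to 3′ in the direction of the gene, from the RefSeq table of build GRCm38.p6. Capitals mark matches on either strand to PU.1 GAGGAAGT, AP-1 TGANTCA, NF-kB GGANTTTCC, the ISRE core GAAANNGAA, CRE TGACGTCA, the CCAAT box CCAAT, the GC box GGGCGG, the E-box CACGTG, ETS CCGGAAG or NRF1 GCGCATGC, and overlapping matches share their capitals. The first 4 belong to regions with more diabetic libraries: Sec14l5 (chr16:5146859-5147108, plus strand), Ccdc184 (chr15:98167556-98167805, plus strand), Gm12216 (chr11:53859257-53859506, minus strand) and Lancl3 (chrX:9199723-9199972, plus strand). The last 3 are all of the promoters at regions with more control libraries: 1700001O22Rik (chr2:30801738-30801987, minus strand), Ttll7 (chr3:146852117-146852366, plus strand), which encodes a tubulin polyglutamylase, and Sec31b (chr19:44545849-44546098, minus strand), a component of the COPII vesicle coat.
Sec14l5: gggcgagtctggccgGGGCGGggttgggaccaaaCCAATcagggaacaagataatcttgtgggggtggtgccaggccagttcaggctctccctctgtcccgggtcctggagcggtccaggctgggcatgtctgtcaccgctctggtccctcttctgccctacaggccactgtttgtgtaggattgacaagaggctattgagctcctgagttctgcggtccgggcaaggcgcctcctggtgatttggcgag
Ccdc184: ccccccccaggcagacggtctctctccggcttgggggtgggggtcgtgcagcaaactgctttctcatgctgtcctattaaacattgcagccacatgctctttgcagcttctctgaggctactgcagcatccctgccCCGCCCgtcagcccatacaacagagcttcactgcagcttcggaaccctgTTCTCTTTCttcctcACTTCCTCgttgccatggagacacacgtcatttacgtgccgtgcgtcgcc
Gm12216: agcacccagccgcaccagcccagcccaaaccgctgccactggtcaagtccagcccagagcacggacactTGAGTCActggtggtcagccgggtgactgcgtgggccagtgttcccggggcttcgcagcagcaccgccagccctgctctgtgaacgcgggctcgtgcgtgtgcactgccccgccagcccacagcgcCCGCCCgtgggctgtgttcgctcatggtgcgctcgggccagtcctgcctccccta
Lancl3: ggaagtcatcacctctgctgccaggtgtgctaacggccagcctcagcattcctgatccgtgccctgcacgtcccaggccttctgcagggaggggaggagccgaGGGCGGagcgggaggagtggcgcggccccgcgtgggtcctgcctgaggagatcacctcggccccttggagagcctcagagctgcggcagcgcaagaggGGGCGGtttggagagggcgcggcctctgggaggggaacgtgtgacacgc
1700001O22Rik: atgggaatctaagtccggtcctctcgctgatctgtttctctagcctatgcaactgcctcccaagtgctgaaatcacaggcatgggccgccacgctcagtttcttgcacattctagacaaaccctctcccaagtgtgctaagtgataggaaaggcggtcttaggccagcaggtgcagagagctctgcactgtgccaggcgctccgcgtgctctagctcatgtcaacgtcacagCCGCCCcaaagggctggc
Ttll7: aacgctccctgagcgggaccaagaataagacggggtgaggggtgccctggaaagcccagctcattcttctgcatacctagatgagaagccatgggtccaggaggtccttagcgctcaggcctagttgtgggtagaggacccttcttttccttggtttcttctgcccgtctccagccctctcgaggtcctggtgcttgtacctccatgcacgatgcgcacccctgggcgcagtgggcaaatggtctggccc
Sec31b: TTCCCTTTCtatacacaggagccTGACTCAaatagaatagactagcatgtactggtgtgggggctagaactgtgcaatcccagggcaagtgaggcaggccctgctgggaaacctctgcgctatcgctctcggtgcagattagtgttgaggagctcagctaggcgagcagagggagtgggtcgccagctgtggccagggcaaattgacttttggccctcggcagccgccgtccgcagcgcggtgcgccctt

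The promoter regions at Sec14l5, Ccdc184 and Gm12216 had a peak in 6 diabetic and 1 control library after stimulation, and that at Lancl3 in 5 and 0. At rest the Sec14l5 region was found in 6 diabetic and 6 control libraries and the Ccdc184 region in 5 and 5. Both were thus accessible in nearly every unstimulated library. At rest the Gm12216 region was found in 3 diabetic and 2 control libraries and the Lancl3 region in 3 and 4. Of the promoters with more control libraries, 1700001O22Rik had a peak in 1 diabetic and 5 control libraries after stimulation and in 2 and 3 at rest. Ttll7 had one in 2 and 6 after stimulation and in 2 and 3 at rest, and its window held none of the motifs. Sec31b had one in 0 and 4 after stimulation and in 0 and 2 at rest. The Sec31b region ended at chr19:44545993, and both marked matches of its window lay beyond that end.

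The 57 regions with more diabetic libraries at promoters overlapped 64 promoter windows. Of these 64, 25 held a GC box (39.1%), against 58.8% of the 14029 promoters that overlapped any merged region and 32.7% of all 32817 promoters. The ETS motif was in 2 of the 64 (3.13%), against 13.3% and 6.90%. The AP-1 motif, bound by Fos and Jun dimers, was in 8 of the 64 (12.5%), against 4.85% of promoters with any region and 6.75% of all. The ISRE core, bound by interferon regulatory factors, was in 7 of the 64 (10.9%), against 6.15% and 7.12%. The E-box was in 7 (10.9%, against 8.56% and 6.02%), the CCAAT box in 21 (32.8%, against 34.2% and 33.8%) and PU.1 in 3 (4.69%, against 2.84% and 2.44%). CRE and NRF1 were in 1 each (1.56%), against 2.72% and 4.31% of promoters with any region and 1.55% and 2.25% of all. NF-kB was in none of the 64, against 1.13% and 1.07%. The median GC content of the windows was 53.8%, against 60.8% in promoters with any region and 52.4% in all promoters. The matches are a description of letters and were not tested, and a match need not lie within the uneven region.

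Every library was checked for how many of the uneven regions it held. Of the 1447 regions with more diabetic libraries, stimulated diabetic replicates 1 to 6 held 91.2%, 83.9%, 92.5%, 79.0%, 65.2% and 90.7%. Stimulated control replicates 1 to 6 held 9.47%, 13.9%, 5.67%, 9.54%, 14.4% and 28.2%. This gap is the one the regions were chosen for. Unstimulated diabetic replicates held 65.0%, 70.4%, 68.1%, 62.0%, 52.4% and 52.5% of them. Unstimulated control replicates held 68.3%, 55.6%, 61.8%, 56.4%, 62.7% and 62.5%. The range of the unstimulated control libraries lay within that of the unstimulated diabetic ones, and both lay above every stimulated control library. Stimulated diabetic replicate 5 fell within both ranges, and the other 5 stimulated diabetic libraries lay above them.

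The 77 regions with more control libraries were chosen for the opposite gap. Stimulated diabetic libraries held between 7.79% and 18.2% of them, and stimulated control libraries between 67.5% and 97.4%. At rest they were found in 29.9% to 61.0% by diabetic libraries and in 33.8% to 54.5% by control libraries, so these groups overlapped as well.

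**Figure D1:**
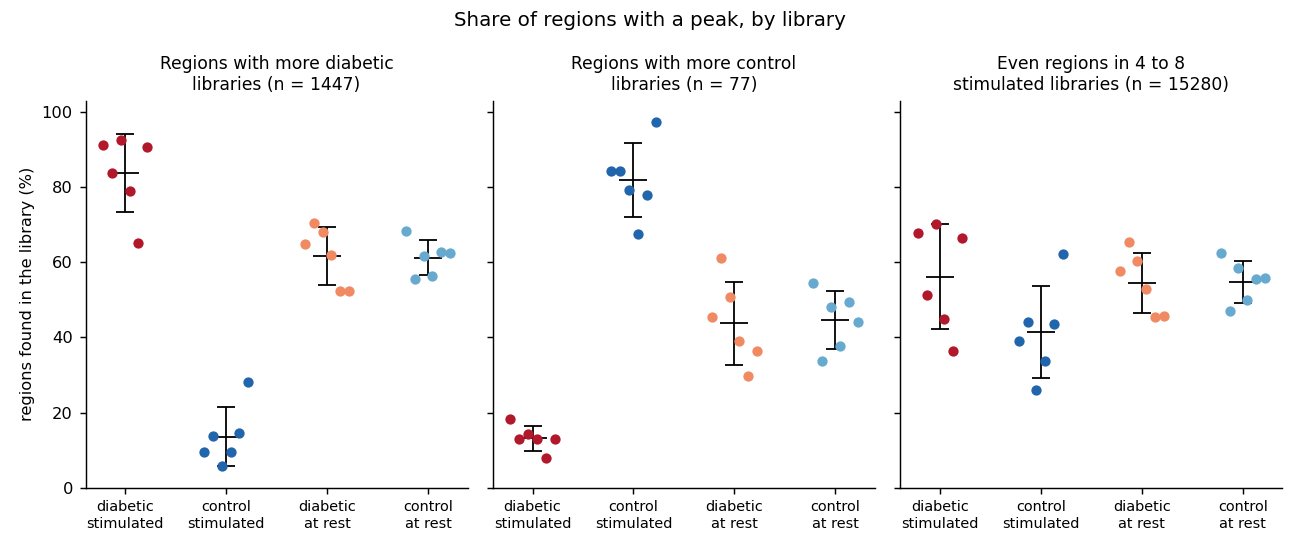
Share of regions with a peak in each library (vertical axis, percent), for the 1447 regions with more diabetic libraries, the 77 with more control libraries and 15280 even regions; each point is 1 library, and the line and bars are the mean ± SD of 6 libraries. The stimulated groups are apart by choice in the first and second panels, and the unstimulated groups overlap in all 3.

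The length of the peak lists moved with these shares. Stimulated diabetic lists held 53703 peaks on average and stimulated control lists 47268. The difference of 6435 peaks had a two-sided exact permutation p of 0.0346 over all label orders, with the diabetic list longer in 30 of 36 pairs of libraries. That p was 0.0625 with the replicate number as a block and 0.0866 for peaks at a −log10 q-value of 5 or more, and between 0.0130 and 0.0693 with 1 library left out, under 0.05 in 4 of 12 such settings (exact permutation tests). The difference was thus past the threshold in part of the settings only. At rest, diabetic lists held 55522 and control lists 55990 peaks, a difference of -468 (exact permutation p = 0.859). The phenotype difference after stimulation minus that at rest, 6903 peaks, had an exact permutation p of 0.0792. That test shuffled labels separately in each state and so did not take into account that the states share animals. Within the stimulated diabetic group, replicate 5 had the shortest list (46503 peaks) and held the fewest of the 1447 regions, and replicate 3 had the longest (58016 peaks) and held the most. Within the stimulated control group, replicate 3 had the shortest list (41385 peaks) and held the fewest, and replicate 6 had the longest (54960 peaks) and held the most. The relative depth read from the peaks, a background level in tags, averaged 0.850 in stimulated diabetic and 0.863 in stimulated control libraries, a difference of -0.0130 (exact permutation p = 0.848).

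With lists of equal length, 262 of the 1447 regions (18.1%) kept a difference of at least 4 libraries, and 1296 kept the same sign. Of the 77 regions with more control libraries, 27 (35.1%) kept that difference and 77 the same sign. On average, shortening took more peaks from the stimulated diabetic lists, which were the longer ones. Among peaks at a −log10 q-value of 5 or more, 236 of the 1447 regions (16.3%) and 3 of the 77 (3.90%) kept the difference, and 1312 and 63 the same sign. The number of regions also hung on single libraries. Without stimulated diabetic replicate 3 there were 382 regions with more diabetic and 183 with more control libraries, and without stimulated control replicate 6 there were 2864 and 11. Part of that shift is built in, since 5 libraries are then set against 6. The values below are for the full lists, and results with equal lists are given for part of the named regions only.

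Before stimulation, more of the regions with more diabetic libraries were found in nearly all libraries of both phenotypes than in hardly any. A region is called open at rest here where at least 10 of the 12 unstimulated libraries had a peak, not found at rest where at most 2 did, and intermediate between. Of the 1447 regions, 612 (42.3%) were open at rest, 560 (38.7%) were intermediate and 275 (19%) were not found. All 12 unstimulated libraries had a peak in 319 (22%), against 16.3% of even and 31.4% of all merged regions. None had one in 138 (9.54%), against 12.2% and 16.2%. Of the 15280 even regions, 32.7% were open at rest, 44.5% intermediate and 22.8% not found, and of all merged regions 39.3%, 22.1% and 38.7%. Where a library had no peak the signal was below the threshold of the peak caller, and closed chromatin cannot be read from that.

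The 77 regions with more control libraries were mostly intermediate or not found at rest. Of these, 15 (19.5%) were open at rest, 38 (49.4%) were intermediate and 24 (31.2%) were not found. All 12 unstimulated libraries had a peak in 2 of them (2.60%), and none in 13 (16.9%). The difference in makeup between these 77 and the 1447 regions was not tested, since both sets were picked on the same 12 stimulated libraries.

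**Figure D2:**
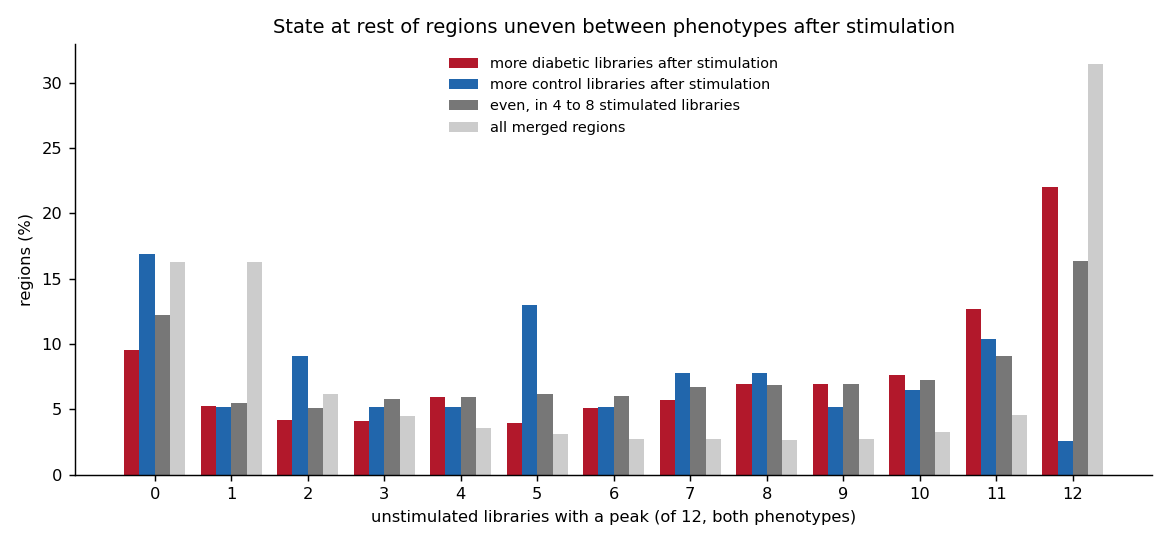
Number of unstimulated libraries with a peak (horizontal axis, 0 to 12, both phenotypes together) against the percent of regions (vertical axis), for regions with more diabetic libraries (n = 1447), regions with more control libraries (n = 77), even regions (n = 15280) and all merged regions (n = 102580). Of the regions with more diabetic libraries 22% were found in all 12 unstimulated libraries, against 2.60% of those with more control libraries, 16.3% of even regions and 31.4% of all merged regions.

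The mean number of libraries at rest was nearly the same in both phenotypes in these regions. Regions with more diabetic libraries after stimulation had a peak in 3.70 ± 2.15 unstimulated diabetic and 3.67 ± 2.21 unstimulated control libraries of 6 (mean ± SD over 1447 regions), a mean difference of 0.0297 libraries. After stimulation the means were 5.03 ± 0.789 diabetic and 0.812 ± 0.775 control libraries. Regions with more control libraries had a peak at rest in 2.62 ± 2.03 diabetic and 2.68 ± 2.09 control libraries (SD over 77 regions), a mean difference of -0.0519. The same difference was -0.0158 in even regions and -0.0237 in all regions. With equal lists the 1447 regions had a mean of 2.46 diabetic and 2.36 control libraries at rest, and the 77 regions 1.22 and 1.25. The 262 regions that kept their difference had 4.48 and 4.38 at rest on the full lists, and the 27 that kept it on the control side 2.85 and 3.22. The number of libraries differed by at most 1 at rest in 80.0% of the 1447 and in 71.4% of the 77 regions, against 77.3% of even regions and 87.2% of all. A region open or not found at rest has little room to differ, so these shares also follow from the makeup of each set at rest.

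A difference of 4 or more libraries at rest was rare. It is possible only where 4 to 8 of the 12 unstimulated libraries had a peak, so the shares also depend on how many such regions a set held. Among all merged regions, 0.373% had at least 4 more diabetic and 0.474% at least 4 more control libraries at rest, 0.847% in all. Of the 1447 regions, 11 (0.760%) had at least 4 more diabetic libraries at rest, the direction they had after stimulation, and 12 (0.83%) had at least 4 more control libraries. Leaving out 1 unstimulated library moved the count of all 1524 regions uneven the same way, 13, to between 4 and 26. The count uneven the opposite way, 12, moved to between 3 and 32. With a diabetic library left out the opposite way always held more, and with a control library left out the same way always did. Leaving out a library can lower the count of its phenotype alone, so a shift in this direction is built in. These settings therefore cannot tell which direction held more. Of the 77 regions, 2 (2.60%) had at least 4 more control libraries at rest and 0 had more diabetic ones. The shares in even regions were 0.798% and 0.831%, so the share among the 1447 was near that in regions that were even after stimulation.

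A two-sided Fisher's exact test of the number of libraries with a peak, diabetic against control at rest, could reach an unadjusted p under 0.05 in 8788 regions. It called 0 of them after Benjamini-Hochberg adjustment over all 8788 (0%), and 137 had an unadjusted p under 0.05 (1.56%). The smallest p that 6 against 6 libraries can give is 0.00216, and 381 completely separated regions would have been needed for a call, whereas 7 were seen. The test could therefore not call single regions here, and the count of 0 says little about any of them. Testable regions were those found in 5 to 7 of the 12 unstimulated libraries, so no region open or not found at rest was among them. Among the 1447 regions 214 were testable and 4 had an unadjusted p under 0.05, 1 with more diabetic and 3 with more control libraries. Among the 77 regions 20 were testable and 0 had an unadjusted p under 0.05.

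**Figure D3:**
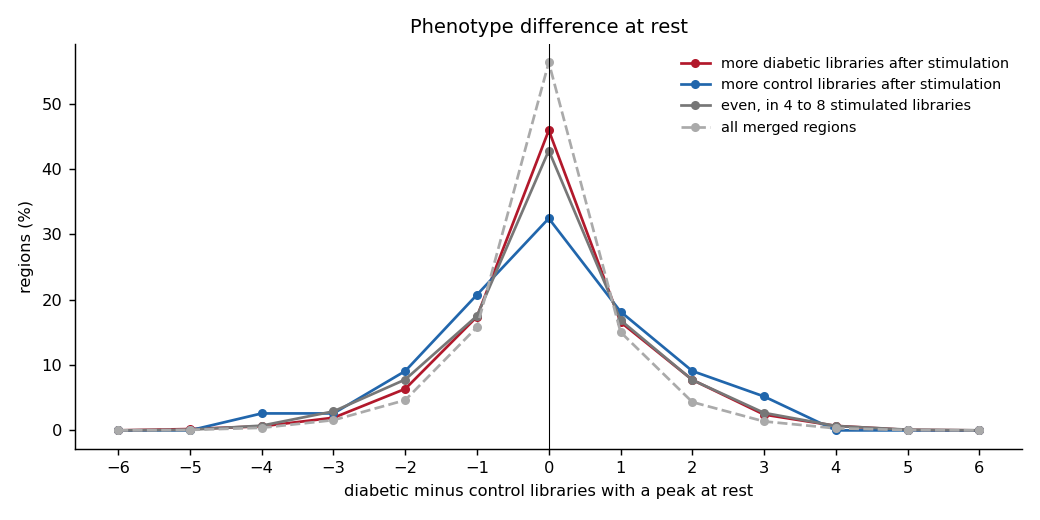
Diabetic minus control libraries with a peak at rest (horizontal axis) against the percent of regions (vertical axis), for the same 4 sets of regions. All 4 curves peak at a difference of 0, and a difference of 4 or more in either direction is rare in each of them.

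The regions were then sorted by how the number of libraries differed between stimulated and unstimulated cells of each phenotype. This uses the stimulated libraries that chose the regions, so nothing is read from the sizes. Of the 1447 regions, 695 (48.0%) had at least 4 fewer control libraries after stimulation than at rest, a change seen in 6.96% of all merged regions and in 13.3% of even regions. There were 287 (19.8%) with at least 4 additional diabetic libraries, seen in 3.18% of all and in 6.80% of even regions. Both changes met in 9 regions, 686 had the control decrease alone, 278 had the diabetic increase alone and 474 (32.8%) had neither. Of the 77 regions, 22 (28.6%) had at least 4 additional control libraries after stimulation, seen in 1.90% of all regions. There were 19 (24.7%) with at least 4 fewer diabetic libraries, seen in 3.60% of all, and 36 with neither.

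The number of libraries after stimulation is given here by resting class as a description, since the stimulated libraries chose the regions. In the 612 regions open at rest, the means were 5.24 stimulated diabetic and 1.02 stimulated control libraries, and 5.67 unstimulated diabetic and 5.68 unstimulated control libraries. In the 275 regions not found at rest, the means were 4.72 stimulated diabetic and 0.567 stimulated control libraries, and 0.367 unstimulated diabetic and 0.353 unstimulated control libraries. Even regions ran the same way, with means after stimulation of 3.69 diabetic and 2.61 control libraries where open at rest, and of 3.10 and 2.33 where not found. With lists of equal length the difference of at least 4 was kept by 159 of the 612 regions open at rest (26.0%), by 77 of the 560 intermediate ones (13.8%) and by 26 of the 275 not found at rest (9.45%). Of the 262 regions that kept it, 60.7% had been open at rest and 9.92% not found.

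Just inside the threshold, 1164 regions had exactly 4 more diabetic libraries, with means of 4.91 stimulated diabetic and 0.907 stimulated control libraries. Just outside it, 3726 regions had exactly 3 more diabetic libraries, with means of 4.38 and 1.38. On the control side 68 regions lay just inside and 440 just outside. At rest the regions with exactly 4 more had a mean of 3.65 diabetic and 3.65 control libraries, and those with exactly 3 more had 3.45 and 3.47. In 257 regions the excess was 5 and in 26 it was 6, which is every diabetic and no control library.

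The 8 leading regions with more diabetic libraries all had a peak in 6 stimulated diabetic and 0 stimulated control libraries, and 7 of them kept a difference of at least 4 with equal lists. They were taken from the 26 such regions by the least difference at rest, so that their equal numbers of diabetic and control libraries at rest are a result of that choice. Over all 26 regions the means at rest were 4.54 diabetic and 4.54 control libraries. Values below are the authors' −log10 q-values, a measure of how clearly a peak stands above its background, which also grows with depth. The leading one lay in the body of Inpp4b, which encodes a lipid phosphatase that acts on products of phosphoinositide 3-kinase (chr8:81466759-81467157 in mm10). It had −log10 q-values of 2.25, 8.20 and 11.9 in stimulated diabetic libraries (lowest, median and highest). At rest it was found in 5 diabetic libraries, with 2.49, 4.52 and 5.53, and in 5 control libraries, with 3.97, 4.77 and 10.3. On the full lists the region was present in both phenotypes at rest and in diabetic libraries alone after stimulation, but with equal lists it was found at rest in 0 diabetic and 3 control libraries. Another region of Inpp4b (chr8:81636127-81636811) had 4.66, 6.93 and 8.31 in stimulated diabetic libraries and no peak in any other group. The same gene thus held a leading region of each kind, one found at rest and one not.

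The region in Zmynd10, a gene for the assembly of ciliary dynein arms (chr9:107548107-107548457), had −log10 q-values of 1.99, 6.96 and 13.2 in stimulated diabetic libraries. At rest all 12 libraries held it, with 5.65, 10.9 and 12.9 in diabetic and 7.42, 9.75 and 16.2 in control libraries. It was thus found in every library of 3 groups and in none of the stimulated control group. The region in Stk3, which encodes the Hippo pathway kinase MST2 (chr15:34927668-34928204), had 4.55, 6.94 and 12.1 in stimulated diabetic libraries. At rest it was found in 5 libraries of each phenotype, with medians of 5.13 in diabetic and 3.31 in control libraries, and with equal lists in 0 and 2. The region 8060 bp from P2ry1, a receptor for ADP (chr3:61016874-61017209), had 3.58, 5.80 and 8.13 in stimulated diabetic libraries and was found in all 12 unstimulated libraries, with medians of 5.66 in diabetic and 3.57 in control. This is the leading region that did not keep its difference with equal lists.

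Regions 21843 bp from Zadh2, which encodes a prostaglandin reductase, and 24308 bp from Gm14037 (chr2:134756092-134756416) were likewise found in all 12 unstimulated libraries. Their medians in stimulated diabetic libraries were 5.99 and 5.79. At rest the Zadh2 region had medians of 6.58 in diabetic and 6.67 in control libraries, and the Gm14037 region 9.47 and 7.50. The last of the 8 had no protein-coding gene within 50 kb (chr7:74724692-74725006). It had −log10 q-values of 3.55, 5.54 and 10.2 in stimulated diabetic libraries and no peak elsewhere. On the full lists 6 of the 8 were open at rest and 2 were found in no unstimulated library. With equal lists 2 of the 8, those at Zmynd10 (6 diabetic and 6 control libraries) and Gm14037 (6 and 4), were still found in at least 10. Mbnl2, which encodes a regulator of RNA splicing, held a further region found in no unstimulated library. It had a peak in 6 stimulated diabetic libraries (4.08, 7.40 and 11.4) and in 1 stimulated control library (4.91), and it kept its difference with equal lists.

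The 8 leading regions with more control libraries had a difference of 5 and were taken from the 9 such regions by the least difference at rest, and 4 of them kept at least 4 with equal lists (Acod1, Rragd, Nr6a1 and F2rl1). Acod1 encodes the enzyme that makes itaconate, a metabolite of classically activated macrophages. Its region (chr14:103052327-103052904, gene body) had no peak in stimulated diabetic libraries and −log10 q-values of 2.58, 4.38 and 5.82 in 5 stimulated control libraries, and no unstimulated library held it. Regions of Ep400, a chromatin remodeller, and 1362 bp from Tmem144 had the same pattern of 0 diabetic and 5 control libraries after stimulation and none at rest. Their medians in stimulated control libraries were 3.77 and 3.18, and the median peak stood at percentile 9.85 and 4.79 of its own list.

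Rragd encodes a Rag GTPase that signals amino acid supply to mTORC1. Its region (chr4:33018380-33018788) was found in 1 stimulated diabetic library (7.26) and in 6 stimulated control libraries (4.73, 6.22 and 7.80), and at rest in 5 diabetic and 6 control libraries with medians of 5.26 and 5.85. Nr6a1 encodes an orphan nuclear receptor. Its region (chr2:38866620-38867090) had no peak in stimulated diabetic libraries, 5 in stimulated control libraries (median 4.77), and at rest was found in 6 diabetic and 5 control libraries with medians of 5.30 and 6.11. Both regions were open at rest, and the stimulated diabetic group was the one in which at most 1 library held them. With equal lists Rragd was found at rest in 3 diabetic and 4 control libraries and Nr6a1 in 4 and 4. F2rl1 encodes the protease-activated receptor PAR2, and the region at its end (chr13:95524618-95525183) was found in 1 diabetic and 6 control libraries after stimulation, and in 5 and 3 at rest. Chchd3, which encodes a protein of the mitochondrial inner membrane, and Cdc42se2, which encodes an effector of the GTPase Cdc42, had 0 diabetic and 5 control libraries after stimulation. At rest Chchd3 was found in 0 and 1, and Cdc42se2 in 2 and 0.

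**Figure D4:**
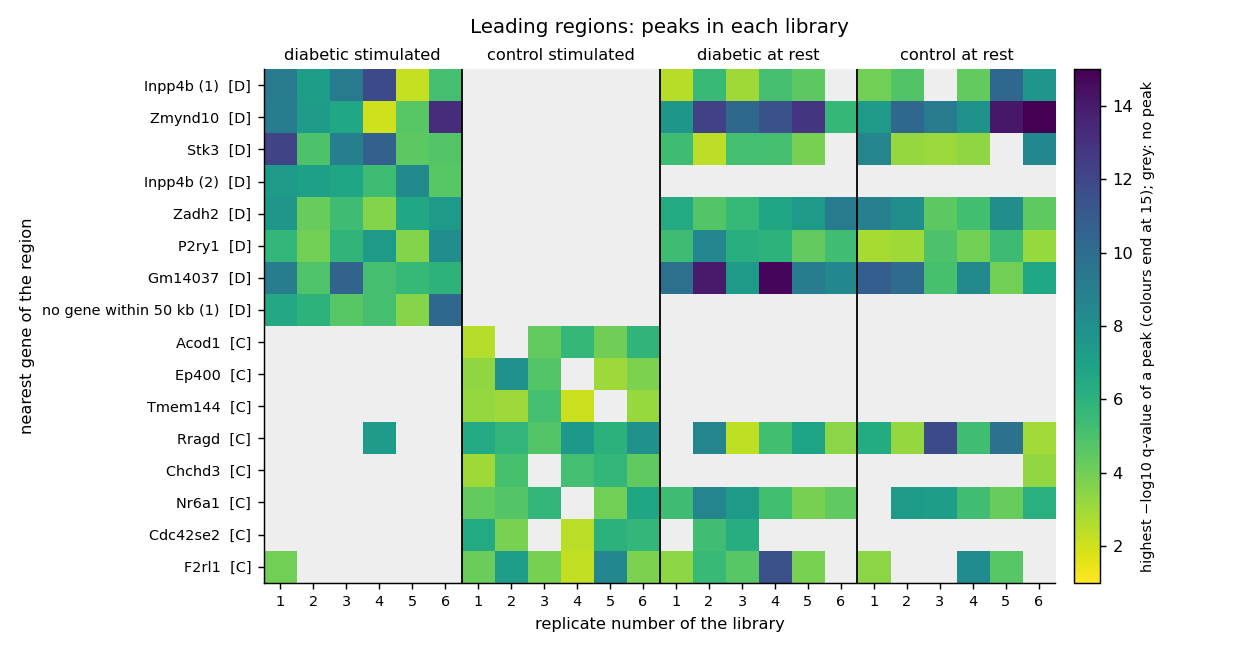
Peaks in each of the 24 libraries (columns, by group and replicate number) at the 8 leading regions with more diabetic libraries, marked D, and the 8 with more control libraries, marked C (rows, by nearest gene). The colour is the authors' −log10 q-value of the highest peak and grey is no peak; 6 of the 8 D regions were found in at least 10 unstimulated libraries.

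Few regions were also uneven before stimulation. Snx18, which encodes a sorting nexin of endosomal traffic, held the widest gap in the same direction. Its region (chr13:113613997-113614220) was found in 4 diabetic and 0 control libraries after stimulation, and at rest in 6 diabetic (3.87, 7.62 and 13.2) and 1 control library (4.34), with an unadjusted Fisher's exact p of 0.0152 at rest. The regions nearest Gm36718, in Dennd2d, which encodes a regulator of Rab GTPases, and in Nsmce2, which encodes a SUMO ligase of the SMC5/6 complex, differed by 4 at rest. Those at Gm36718 and Dennd2d were found in 6 diabetic and 2 control libraries at rest, and that at Nsmce2 in 4 and 0. Among the regions with more control libraries, Mybpc1, a gene for a muscle myosin-binding protein, had 2 diabetic and 6 control libraries both after stimulation and at rest. A region with no protein-coding gene within 50 kb (chr10:37447827-37448239) had 0 diabetic and 5 control libraries after stimulation and 0 and 4 at rest. Ktn1, which encodes a membrane protein that binds kinesin, followed with 1 and 4 at rest, a gap under 4. With equal lists the regions at Gm36718, Mybpc1, Ktn1 and chr10:37447827-37448239 kept their difference after stimulation. Those at Snx18, Dennd2d and Nsmce2 did not.

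Others pointed the opposite way at rest. Spata1 held a region with 4 diabetic and 0 control libraries after stimulation and 1 and 6 at rest. Uckl1, which encodes a uridine kinase, had a region 718 bp from the gene with 5 and 0 after stimulation and 0 and 5 at rest. An intergenic region (chr17:83277444-83277964) had 6 and 2 after stimulation and 1 and 6 at rest. Each of these 3 had an unadjusted Fisher's exact p of 0.0152 at rest and none kept its difference after stimulation with equal lists. Of the regions with more control libraries, the 2 found in all 12 unstimulated libraries lay in Fhit, a gene for a nucleotide hydrolase, and 21874 bp from Pik3cg. The Fhit region had 2 diabetic and 6 control libraries after stimulation and that near Pik3cg 1 and 5.

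Genes of macrophage activation, metabolism, identity and the cell cycle were looked at next. The 11 lists comprised 259 genes, and 2143 merged regions had one of them as the nearest protein-coding gene within 50 kb. A region said to be at a listed gene can thus lie up to 50 kb from it. Of these regions 28 had more diabetic libraries (1.31%, against 1.41% of all merged regions) and 4 had more control libraries (0.187%, against 0.0751%). They belonged to 25 genes of 8 lists, 14 of the 32 were open at rest and 7 were not found. The lists as a whole thus held about the background share of regions with more diabetic libraries.

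Of 166 regions at inflammatory cytokine genes, 1 had more diabetic libraries (0.602%). It lay 23326 bp from Cxcl1, a chemokine for neutrophils (chr5:90867756-90868081), in 4 stimulated diabetic (5.61, 6.35 and 8.69), 0 stimulated control and no unstimulated libraries. Of 151 regions at interferon response genes, 3 had more diabetic libraries (1.99%) and 1 had more control libraries. They included a region at Usp18, the protease that removes ISG15, with 5 and 0 libraries after stimulation. Others lay 40572 bp from the transcription factor gene Irf1 (4 and 0) and 3056 bp from Irgm2 (0 and 4), an interferon-inducible GTPase. Of these 4 none was open at rest and none was in the not found class.

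Of 216 regions at classical activation genes, 5 had more diabetic libraries (2.31%) and 1, at Acod1, more control libraries. Cd86, a costimulatory ligand for T cells, held 2 of the 5. One of them was found in 5 stimulated diabetic and 0 other libraries, and the other in 4 stimulated diabetic, 0 stimulated control and, at rest, 5 diabetic and 6 control libraries. Slamf7, a receptor of the SLAM family, had 4 and 0 after stimulation and 5 and 6 at rest. The region 44181 bp from the scavenger receptor gene Marco had 5 and 1 after stimulation. That 831 bp from Cybb, the catalytic subunit of the phagocyte oxidase, had 6 and 2. Of 300 regions at genes of NF-κB, AP-1 and their feedback, 3 had more diabetic libraries. They lay 21808 bp from Nfkbiz (6 and 2, none at rest), 2674 bp from Irak3 (4 and 0, none at rest) and 18408 bp from Tnfaip3 (5 and 1, with 6 and 5 at rest). All 3 genes encode regulators within NF-κB signalling, and the Tnfaip3 region had medians at rest of 9.29 in diabetic and 4.28 in control libraries. With equal lists the Tnfaip3 region was found in 3 diabetic and 1 control library after stimulation, and in 6 and 1 at rest.

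Of 169 regions at alternative activation genes, 5 had more diabetic libraries (2.96%) and 1 more control libraries. Pparg, a nuclear receptor of lipid metabolism, held 3 of the 5 and the 1. The region 14721 bp from Pparg (chr6:115504911-115505339) had −log10 q-values of 2.44, 6.14 and 15.8 in 6 stimulated diabetic libraries and 6.02 in 1 stimulated control library. At rest all 12 libraries held it, with 5.33, 13.7 and 17.6 in diabetic and 6.13, 10.5 and 21.6 in control libraries, and it kept its difference with equal lists. The region 3154 bp from Pparg had 5 and 1 libraries after stimulation and 5 and 5 at rest, and one in the gene body had 4 and 0 after stimulation and 1 and 0 at rest. The Pparg region with more control libraries (chr6:115380643-115381021, gene body) had 2 and 6 after stimulation and 2 and 4 at rest. The others were at Irf4, a transcription factor (5 and 1, with 6 and 6 at rest), and 18580 bp from Clec10a, a lectin (4 and 0, none at rest).

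Of 309 regions at genes of glucose handling and insulin signalling, 9 had more diabetic libraries (2.91%) and 1 more control libraries, and 6 of the 10 were open at rest. Foxo1, a transcription factor that insulin restrains, held 2. One of these, 10964 bp away (chr3:52360903-52361244), had 6 and 0 libraries after stimulation with weak peaks (2.29, 4.17 and 5.61) and 3 and 1 at rest, and the other had 6 and 2 after stimulation and 6 and 6 at rest. Irs2, an adaptor of the insulin receptor, had a region 40218 bp away with 6 and 1 after stimulation and 4 and 2 at rest. Pik3cg, the catalytic subunit of PI3-kinase gamma, held 2 with more diabetic libraries. Of these, the one 45341 bp away (chr12:32127876-32128236) had 5 and 0 after stimulation and 4 and 4 at rest and kept its difference with equal lists. Further ones were at the glucose transporter gene Slc2a1 (4 and 0, with 6 and 5 at rest), the hexokinase gene Hk2 (5 and 1, with 6 and 5) and the PI3-kinase subunit gene Pik3r1 (4 and 0, with 5 and 4).

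Ezh2, a histone methyltransferase gene, held the 1 region of 238 at genes of trained immunity and chromatin (0.420%), with 5 and 1 libraries after stimulation and 1 and 3 at rest. Csf1r, the receptor for the growth factor M-CSF, held the 1 of 198 at macrophage identity genes (0.505%). That region had −log10 q-values of 4.79, 8.90 and 18.5 in 6 stimulated diabetic libraries and 4.07 to 4.71 in 2 stimulated control libraries. All 12 unstimulated libraries held it, with medians of 14.2 in diabetic and 9.65 in control, and it kept its difference with equal lists. None of the 232 regions at lipid and cholesterol genes, the 70 at antigen presentation genes or the 113 at cell cycle genes was uneven. Of the 32 regions at listed genes, 4 kept a difference of at least 4 with equal lists, those at Pparg, Pik3cg, Csf1r and Acod1.

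**Figure D5:**
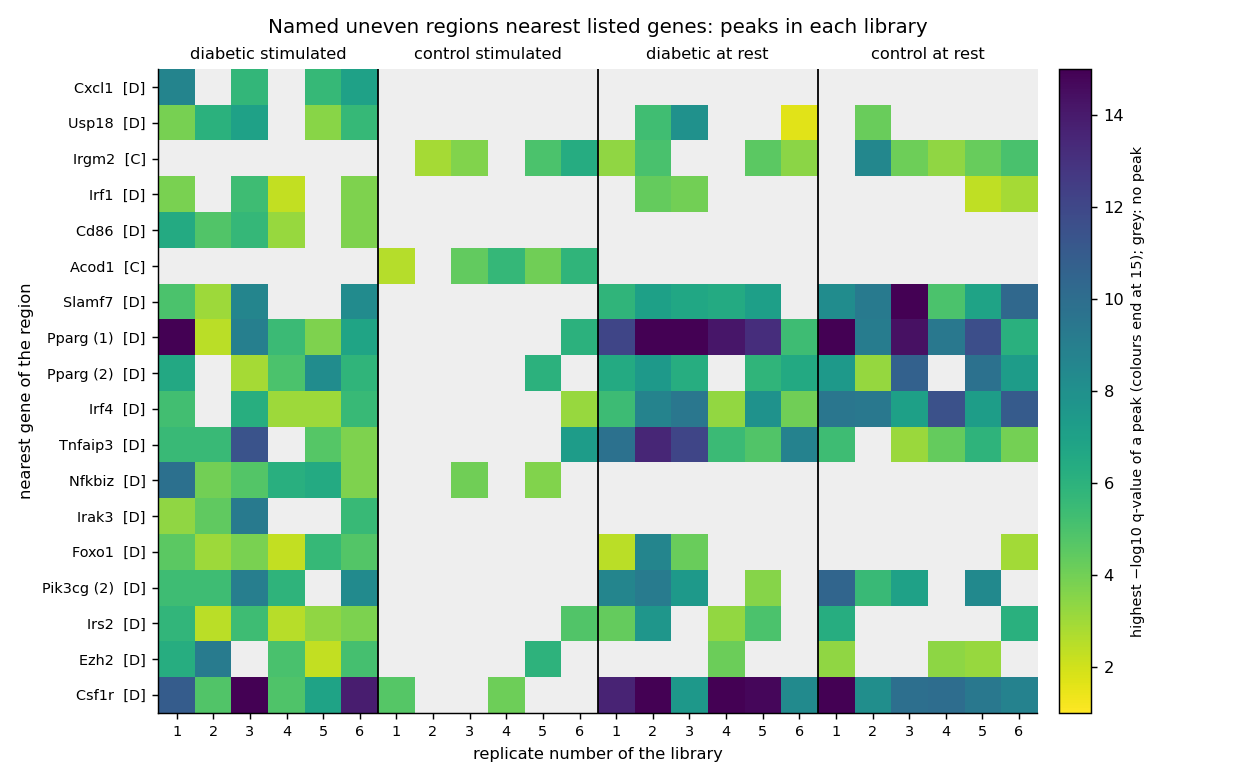
Peaks in each of the 24 libraries (columns) at up to 3 uneven regions per gene list (rows, by nearest gene; D marks more diabetic and C more control libraries). The colour is the authors' −log10 q-value and grey is no peak; regions at Pparg, Irf4, Slamf7 and Csf1r are found in 10 to 12 unstimulated libraries, and those at Cxcl1, Cd86, Nfkbiz, Irak3 and Acod1 in none.

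The 1524 regions were spread over many genes. Of them, 1290 had a protein-coding gene within 50 kb, 1168 genes in all, of which 1062 had 1 region, 92 had 2 and 14 had 3 or more. Regions of both directions met at 11 genes. Pparg had 4 of its 24 regions uneven and Lpp, which encodes a LIM protein of cell adhesions, 4 of 77. Gda, the gene for guanine deaminase, and Tbl1xr1, a subunit of the NCoR corepressor complex, had 3 of 17 each, Clec16a, a gene of autophagy, 3 of 21, and Mbp, the gene for myelin basic protein, 3 of 26. The 3 Mbp regions were open at rest in all 12 libraries, with 5 and 1, 5 and 1, and 4 and 0 libraries after stimulation. None of the 3 at Gda was open at rest. Of the 4 Lpp regions, 2 were open at rest. With equal lists, 1 of the 4 Pparg regions kept a difference of at least 4 libraries. None of those at Lpp, Gda, Tbl1xr1, Clec16a and Mbp did. Only 40 of the 1524 regions (2.62%) had another within 10 kb.

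Most of the regions lay away from gene ends. Of the 1447, 100 (6.91%) lay within 1 kb of the start or end of a RefSeq gene, 769 (53.1%) in a gene body and 578 (39.9%) outside genes. Of the 77, 17 (22.1%) lay at a gene end, 34 (44.2%) in a gene body and 26 (33.8%) outside. The shares at gene ends were 9.12% in even regions and 15.3% in all merged regions. With equal lists, 15 of the 262 regions that kept more diabetic libraries (5.73%) and 7 of the 27 that kept more control libraries (25.9%) lay at gene ends. These shares were not tested. Exons, introns and UTRs were not resolved. Regions with more diabetic libraries made up between 1.08% of merged regions, on chromosome 18, and 1.85%, on chromosome 16, leaving out chromosome Y with 0 of 17.

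The peaks in these regions were weak ones within their lists. Ranked by −log10 q-value in its own list, the median peak of the 1447 regions stood at percentile 25.2 in stimulated diabetic libraries, 24.2 in stimulated control, 35.1 in unstimulated diabetic and 34.3 in unstimulated control libraries. Even regions stood at 24.8, 22.7, 31.1 and 31.0 in the same order of groups. The 77 regions stood at 23.2, 20.4, 25.2 and 25.4. Of the stimulated diabetic peaks in the 1447 regions, 11.1% lay above the median of their list, against 9.29% in even regions. Ranks are within a list, and lists differ in length, so the groups are not compared by them.

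List length ranged from 41385 to 61861 peaks, and 22770 merged regions were found in all 24 libraries and 21982 in 1 only. The cells carried macrophage markers: 10 of 13 macrophage genes had a peak at a gene end in all 24 libraries, and the lowest had one in 18. All 4 mast cell genes, 3 of 6 B cell genes, 4 of 6 erythroid and megakaryocyte genes, 5 of 7 T and NK cell genes (Cd3e, Cd3g, Cd8a, Lck and Ncr1) and 4 of 7 neutrophil genes (Elane, Mpo, Ltf and Ly6g) had none. Other genes of these lists had peaks in most of the 24 libraries, such as Cd3d in 24, Cd4 in 23, Camp in 24, S100a8 in 22, Cd79a in 23, Ebf1 in 21, Klf1 in 24 and Pf4 in 24. Of the dendritic genes Batf3 and Xcr1 had one in 24, Flt3 in 23, Siglech in 1 and Zbtb46 in 0. A peak at a gene end therefore does not separate these cell types by itself. Summed over genes and libraries, neutrophil markers had 14 peaks in stimulated diabetic, 11 in stimulated control, 18 in unstimulated diabetic and 18 in unstimulated control libraries. Stromal and endothelial markers had 15, 12, 12 and 11, and their part in the uneven regions was not tested.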

How the data were processed

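ATAC-seq was carried out on 24 libraries, 6 in each of 4 groups, from nuclei of 50000 cells each with single reads of 50 bp, per the labels' protocols. The authors deposited 1 peak list per library. Among the tools in the submitters' processing notes are MACS2 2.1.1, Bowtie2 2.2.6, Trim Galore, FastQC 0.11.3, edgeR and DiffBind 2.4.8, and the build is mm10. Tool settings, any shift of reads for the Tn5 cut and read totals were not stated there. The deposited values of a peak are a score, its fold enrichment, a −log10 p-value and, adjusted, a −log10 q-value. All are the authors' own. Ranks and background levels were taken within a list. Values of −log10 q at named regions are printed side by side for groups, over the libraries with a peak only. They grow with depth and were not tested between groups. A background level in tags, 0.664 to 1.007, was solved from the fold and −log10 p-value of 3000 peaks per library to within 0.003, as a measure of relative depth.

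Peaks were merged at an overlap of 1 bp and each region scored as found or not in each library (Python 3.11.15, pandas 2.3.3, scipy 1.17.1). Regions at rest were compared by a two-sided Fisher's exact test with Benjamini-Hochberg adjustment at 0.05, and values per library by two-sided exact permutation tests. Fisher's exact test with its adjustment and the rule of 4 libraries were run on simulated detections, and the permutation tests were not. P-values measure the spread between these libraries. The regions, gene lists and tests were chosen with earlier results of these data known. Genes came from RefSeq (GRCm38.p6, the chromosomes of mm10), which in the table used gives no strand, so a gene end is its start or its end. The nearest protein-coding gene within 50 kb of the midpoint names a region and need not be its target. Named regions were, per direction, the 8 with the greatest difference (ties by the least difference at rest, then by the highest median −log10 q-value), the 4 most uneven the same way at rest, up to 3 in all or none of the 12 unstimulated libraries, the first 3 opposite at rest, up to 3 per gene list, the 6 genes with most regions, and up to 4 promoters. Other listed genes with an uneven region were named after their values were seen. Stimulated and unstimulated libraries share animals, since each sample was divided, but no label says that a replicate number marks the same animal, so numbers entered only the replicate block. Alternatives were lists of equal length, a −log10 q-value of at least 5, merging at 100 bp, summits within 250 bp, a difference of 5, a replicate block and leaving out each library.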

Additional observations from a re-analysis of the deposited data

Results flagged for a closer look

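The background level of unstimulated control replicate 6, used as a measure of relative depth, was 0.664 tags, the lowest of the 24 libraries and far below the other 5 of its group for the size of that group's range. It was the 1 library to stand apart in this way among 28 groups of values checked, and chance marks about 1 group in 20.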

How the results depend on the processing

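With lists of equal length there were 527 regions with more diabetic and 287 with more control libraries, and 6 regions uneven the opposite way at rest in place of 12. Among peaks at a −log10 q-value of 5 or more there were 39 with more control libraries, and with a difference of 5 there were 283 and 9. With that difference of 5 required at rest too, in place of 4, 0 of these were uneven the same way and 1 the opposite way. Merging at 100 bp gave 1436 and 74, and summits within 250 bp gave 1470 and 90. Leaving out 1 stimulated library gave 382 to 2864 regions with more diabetic libraries, 11 to 183 with more control libraries, 8 to 25 uneven the same way at rest and 3 to 19 the opposite way. The diabetic count was lowest without stimulated diabetic replicate 3 and highest without stimulated control replicate 6, and the control count the other way round. Leaving out 1 unstimulated library gave 4 (without diabetic replicate 3) to 26 (without control replicate 1) the same way, and 3 (without control replicate 5) to 32 (without diabetic replicate 3) the opposite way. Part of these shifts is built in, since 5 libraries are then set against 6. The number of regions called at rest by Fisher's exact test was 0 in every setting run, with 129 regions under an unadjusted p of 0.05 for equal lists, 114 for the stricter q-value and 7 under the replicate block, an exact McNemar test. The stimulated peak number difference of 6435 had an exact permutation p of 0.0625 under the replicate block. With the stricter q-value it was 5791 (exact permutation p = 0.0866), and leaving out 1 library it was 5259 to 7974, with p from 0.0130 to 0.0693 and under 0.05 in 4 of 12 settings. The background level difference of -0.0130 ranged from -0.0445 to 0.0155. Deviations of same-numbered libraries from their group means had correlations of -0.0557 to 0.0122 over the 4 pairs of groups, and 1 library at most correlated best with its own number in a pair of groups. The numbers thus gave no sign of pairing, and no label says that they pair libraries. The causes were not tested. Depth is known here only through the peaks, and 6 libraries per group limit what a single region can show.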
